A study of Mus musculus with 6 samples.

Results

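The extracellular matrix genes examined here were elastin, the microfibril proteins and fibulins that surround it, the latent TGF-β binding proteins, the lysyl oxidases, the small and large proteoglycans and a group of adhesive matrix glycoproteins. They are 38 genes taken by name from a count table of 41721 gene rows, and all 38 had a row and passed the filter on low counts. Choice of the members used their function and not their measured values in these libraries, although earlier results of the same data were known. *Ltbp4* names 2 rows, and the row with the larger count was used, since the other held 0 counts in every library.

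The libraries came from cultured aortic smooth muscle cells of 2 genotypes, *Pdk4*fl/fl (floxed, the control) and *Pdk4*SMKO (SMKO), with 3 libraries each. *Pdk4*fl/fl mice carry loxP sites around exons 4 to 6 of *Pdk4*, the gene of pyruvate dehydrogenase kinase 4, a mitochondrial kinase that turns down pyruvate oxidation, and *Pdk4*SMKO mice carry in addition a tamoxifen-inducible Cre recombinase driven by the *Myh11* promoter of smooth muscle. The methods give isolation from the abdominal aortas of mice aged 10 weeks and use at passages 4 to 8, and for the aneurysm model in mice of both genotypes tamoxifen at 75 mg/kg/day for 5 days from the age of 6 weeks. All 6 cultures had received angiotensin II (Ang II), at 1 μM for 48 h according to the methods, so the effect of Ang II itself cannot be read from these libraries. The study calls the libraries of a genotype biological replicates, but whether they came from separate mice or separate cultures is not stated in the sources used here, so the p-values measure the spread between these libraries.

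Elastic fibres give the arterial wall its recoil. Tropoelastin, the product of *Eln*, is laid down on a scaffold of fibrillin microfibrils with the help of fibulins, and lysyl oxidases then cross-link elastin and collagen by oxidising lysine side chains. Small leucine-rich proteoglycans bind collagen fibrils and growth factors, latent TGF-β binding proteins hold TGF-β in the matrix, and the adhesive glycoproteins link cells to that matrix and are often raised in injured vessels. Smooth muscle cells are the main source of elastic fibres in the arterial media.

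The libraries held 16526044 to 22481670 counts. Of the 14085 genes tested, 59.3% were called different between the genotypes, that is, with an adjusted p under 0.05 by edgeR's quasi-likelihood test and at least a 2-fold change, 32.8% being higher and 26.5% lower in SMKO cells. *Pdk4* had 570, 639 and 421 counts in the floxed libraries and 110, 182 and 141 in the SMKO libraries, a log2 fold change of -2.34 (SE 0.22). *Xist*, which is transcribed from the inactive X chromosome, had 3, 4 and 5 counts in floxed and 610, 347 and 321 in SMKO libraries. Yet the methods describe the mice as male and the Cre transgene as Y-linked, so that only males could carry the knockout. With these counts, sex of origin and genotype cannot be told apart, and the source of the *Xist* counts was not tested. Among the markers of smooth muscle, *Acta2*, *Myh11*, *Lmod1* and *Des* were higher and *Tagln*, *Cnn1* and *Smtn* lower in SMKO cells. *Myh11* itself was at 0.533 to 0.757 CPM, counts scaled with TMM factors to a common library total, in floxed and 2.19 to 2.72 CPM in SMKO libraries. Markers of other cells moved with the genotype as well. The summed level of 8 mesothelial markers was 74.2 to 99.99 CPM in floxed and 723 to 1325 CPM in SMKO libraries, with 7 of 7 tested genes higher. Of these, *Upk3b*, *Upk1b*, *Krt18*, *Lrrn4* and *Wt1* had at most 15 counts in any floxed library. They passed the filter on low counts through the SMKO libraries, and *Krt8* was too low to test. The sum of 8 fibroblast markers was 66.1 to 75.5 CPM against 1079 to 2220 CPM, with 3 of 7 tested genes higher and 1 lower, most of it *Col14a1*, while *Pdgfra* was not called. Macrophage markers summed to 21.4 to 37.995 CPM and 11.8 to 38.7 CPM. Nearly all of the floxed sum was *Cd68* (21.3 to 37.9 CPM), which was lower in SMKO libraries (2.94 to 6.81 CPM). The other 6 of the 7 tested genes were called higher, but had at most 4 counts in any floxed library. They passed the filter on low counts through the SMKO libraries. The 8 endothelial markers summed to 14.1 to 23.7 CPM and 2.94 to 5.62 CPM, mostly *Kdr*, with *Cldn5* at 0 in every library. The 6 adipocyte markers summed to 0.659 to 0.933 CPM and 1.23 to 1.93 CPM. *Adrb3* made up most of the SMKO sum, while *Adipoq* had 5, 9 and 10 counts in floxed and 0, 1 and 0 in SMKO libraries. Of the other markers called higher, *Myh11*, *Des*, *Cd34*, *Dpep1* and *Adrb3* also passed the filter on low counts through the SMKO libraries. The part of these cell types, and of sex, in the member results was not tested.

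Of the 38 matrix genes, 24 were higher, 7 were lower and 7 were not called in SMKO cells, so that 31 of 38 were called beside 59.3% of all genes tested. Their median log2 fold change was 1.495, and that of all genes tested was 0.12. *Efemp1*, *Mfap5*, *Fbln1*, *Lum* and *Omd*, with at most 13 counts in any floxed library, passed the filter on low counts through the SMKO libraries. No adjusted p is therefore given for these genes below. In bulk RNA, a change in the number of cells of a type and a change in RNA per cell cannot be told apart. The 3 libraries of each genotype did not overlap for 35 of the 38 members, beside 81.8% of all genes tested, the exceptions being *Mfap4*, *Efemp2* and *Sparc*. For each of the 35 the exact two-sided permutation test gave p = 0.1, the smallest that 3 libraries against 3 can give. Together the members took 1.22% ± 0.143 of all counts in floxed and 4.11% ± 0.181 in SMKO libraries (SD, n = 3 each, exact permutation p = 0.1). Leaving *Fn1* out, the shares were 0.956% ± 0.0695 and 2.69% ± 0.325. With scaling to the library total alone, the median of all genes moved from 0.12 to 0.72 and that of the members to 2.10, with 26 higher and 5 lower, and of all calls 72.1% in place of 55.3% were higher.

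**Figure D1:**
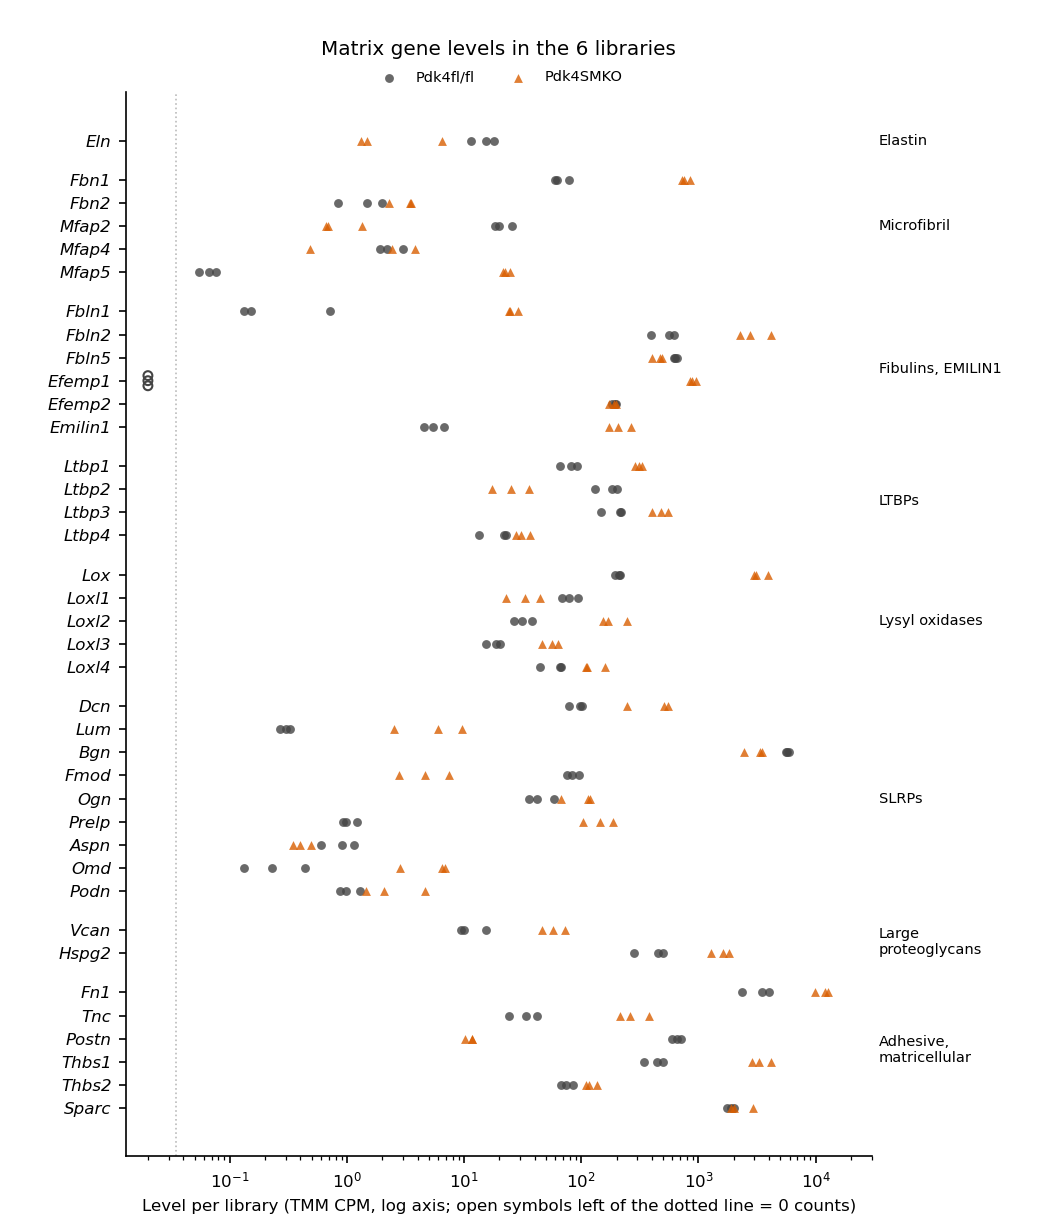
Level of each matrix gene in each library, in TMM-normalised CPM on a log axis, with circles for the 3 floxed and triangles for the 3 SMKO libraries, open symbols standing for 0 counts. The symbols of the genotypes lie apart for 35 of the 38 genes and intermix for *Mfap4*, *Efemp2* and *Sparc*.

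**Figure D2:**
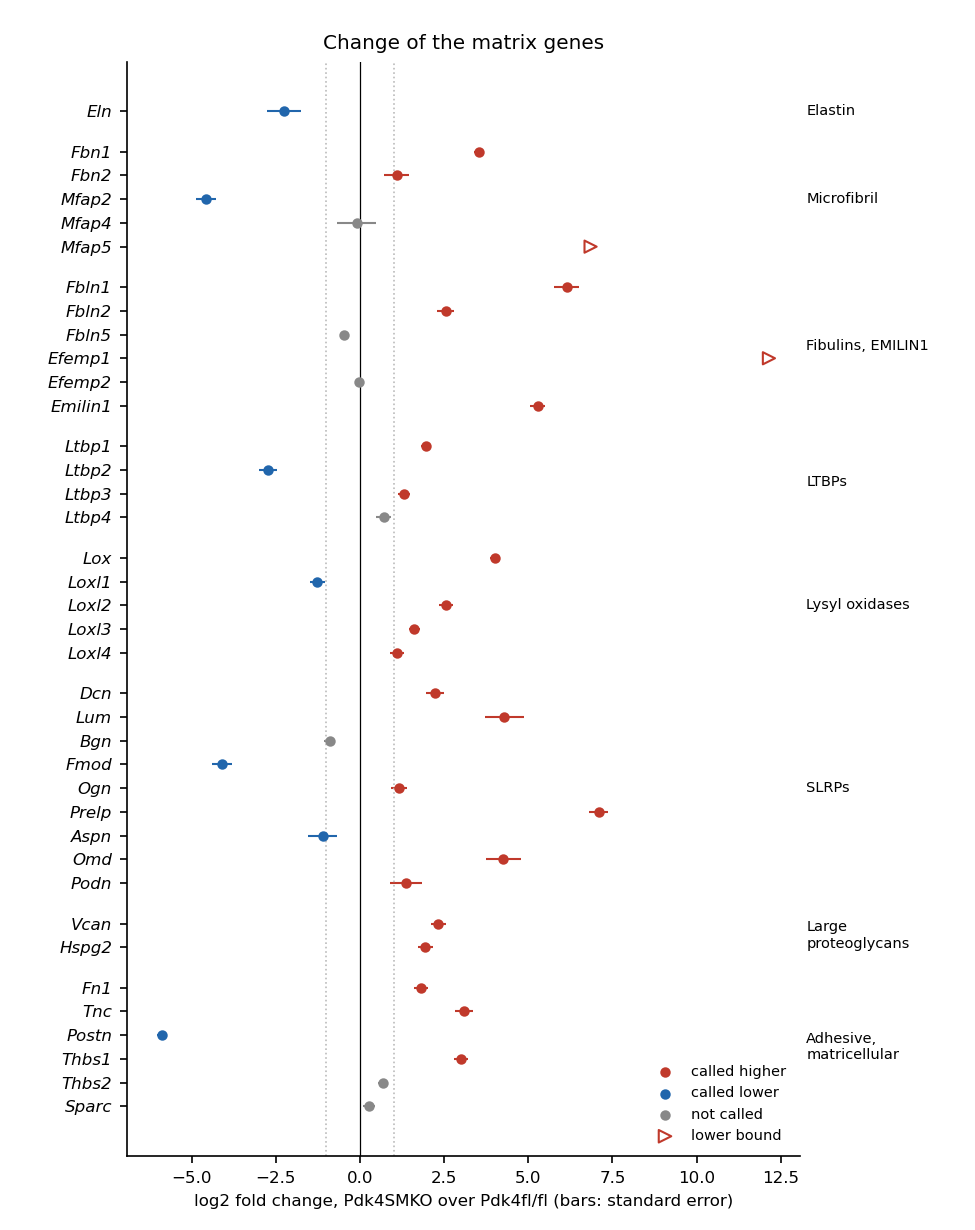
Log2 fold change of each member, SMKO minus floxed, from edgeR's fit, with bars of 1 standard error, by role (LTBPs, latent TGF-β binding proteins, and SLRPs, small leucine-rich proteoglycans), red for higher, blue for lower and grey for not called, and dotted lines at 2-fold. Open triangles stand for the lower bounds of *Efemp1*, furthest to the right, and *Mfap5*, and *Postn* lies furthest to the left at -5.87.

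Elastin mRNA was low in these cultures and fell further in SMKO cells. *Eln* (chromosome 5, 144374271 to 144422375, in the coordinates of the count table) was at 18.1, 11.4 and 15.3 CPM in the floxed libraries and at 6.45, 1.49 and 1.32 CPM in the SMKO libraries. Every SMKO library lay below every floxed library, but replicate 1 of SMKO stood 4.58-fold above the mean of replicates 2 and 3. The log2 fold change was -2.25 (SE 0.51, adjusted p = 0.0022, edgeR's quasi-likelihood test), and without that replicate it was -3.39. Per kilobase of annotated gene length, *Eln* had 1.84 CPM in floxed and 0.382 CPM in SMKO cells, rank 26 and rank 36 of the 38 members.

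Microfibril genes divided by gene. *Fbn1*, fibrillin-1, the main structural protein of microfibrils and the gene mutated in Marfan syndrome, was at 78.7, 61.7 and 60.01 CPM in floxed and at 848, 756 and 725 CPM in SMKO libraries. The groups were far apart and tight within themselves, an 11.6-fold ratio of the means with a log2 fold change of 3.54 (SE 0.15, adjusted p = 3.3e-08, edgeR). *Mfap5*, a microfibril glycoprotein also called MAGP2, had 1 count in each floxed library and 561, 448 and 434 counts in the SMKO libraries. It was thus at or under the floor of 3 counts in one genotype and at 22.7 ± 1.71 CPM (SD, n = 3) in the other, at least 115-fold higher. Its relative *Mfap2*, MAGP1, went the opposite way. *Mfap2* was at 19.8, 18.2 and 25.5 CPM in floxed and at 0.659, 1.34 and 0.687 CPM in SMKO libraries. That is a 23.6-fold lower mean with no overlap (log2 fold change -4.56, SE 0.29, adjusted p = 3.3e-07, edgeR). *Fbn2*, fibrillin-2, the isoform of developing tissue, had 11 to 30 counts in floxed and 47 to 80 in SMKO libraries, and its call as higher (1.09, SE 0.37, edgeR's adjusted p = 0.021) was lost without replicate 2 or 3 of floxed or replicate 1 or 2 of SMKO, at values of 0.82 to 1.11. Of the fibrillin mRNA per length, *Fbn1* made up 97.6% ± 0.697 in floxed and 99.5% ± 0.0803 in SMKO cells.

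*Mfap4*, an elastic fibre glycoprotein that binds fibrillin and tropoelastin, was at 3.00, 1.92 and 2.19 CPM in floxed and at 0.483, 3.78 and 2.40 CPM in SMKO libraries. The lowest and the highest of the 6 values both came from SMKO cells, replicates 1 and 2. Its log2 fold change of -0.10 (SE 0.58, edgeR's adjusted p = 0.88) turned positive with upper-quartile or library-size scaling and without either replicate 1, as 0.10 to 0.49. The span of *Mapk7* overlaps that of *Mfap4* on the opposite strand, with 2603 counts over the 6 libraries against 245 for *Mfap4*. The use of strand in counting is not given and overlap of exons was not examined. Whether reads of *Mapk7* entered the counts of *Mfap4* is therefore not known.

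Fibulins are secreted glycoproteins that tie elastin to microfibrils and cells. Of the 5 genes, *Efemp1*, *Fbln1* and *Fbln2* rose, and *Fbln5* and *Efemp2* were not called. *Efemp1*, fibulin-3, had 0 counts in all 3 floxed libraries and 19189, 17833 and 19380 counts in the SMKO libraries. It was therefore undetected to a floor of 3 counts per library in one genotype. In the other it was at 842, 887 and 951 CPM, which made it at least 4530.4-fold higher. Per kilobase its level in SMKO cells was 439 ± 26.7 CPM (SD, n = 3), rank 7 of the 38. *Fbln1*, fibulin-1, followed with 2, 13 and 2 counts in floxed and 660, 492 and 490 counts in SMKO libraries. The log2 fold change was 6.14 (SE 0.38), or 7.45 without replicate 2 of floxed, the library with the 13 counts.

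*Fbln2*, fibulin-2, was already abundant and was at 613, 559 and 395 CPM in floxed against 4199, 2744 and 2245 CPM in SMKO libraries. Its lowest SMKO library was several-fold above its highest floxed library (log2 fold change 2.55, SE 0.25, edgeR's adjusted p = 6.5e-06). The fibulins best known for elastic fibre assembly behaved otherwise. *Fbln5*, fibulin-5, which carries tropoelastin to the microfibril, was at 631, 621 and 650.2 CPM in floxed and at 489, 467 and 403 CPM in SMKO libraries. The groups did not overlap, but the change of -0.49 (SE 0.12, edgeR's adjusted p = 0.0038) was under 2-fold and was 0.12 with library-size scaling. *Efemp2*, fibulin-4, which brings lysyl oxidase to tropoelastin, was at 194, 183 and 196 CPM against 189, 196 and 171 CPM. Its genotypes overlapped (log2 fold change -0.04, SE 0.11, edgeR's adjusted p = 0.75), and the sign turned with upper-quartile scaling (0.17) or library-size scaling (0.57). The makeup of fibulin mRNA per length shifted with these values. *Fbln5* held 41.6% ± 3.17 of it in floxed and 7.28% ± 0.515 in SMKO cells, whereas *Efemp1* went from 0 to 41.6% ± 7.64, and the total was 262 ± 15.0 and 1073 ± 144 CPM per kilobase (SD, n = 3).

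*Emilin1*, an elastin microfibril interface protein that restrains TGF-β processing, was at 5.40, 4.50 and 6.73 CPM in floxed and at 204, 264 and 174 CPM in SMKO libraries. The means differed 38.6-fold, with a log2 fold change of 5.28 (SE 0.22, adjusted p = 2.6e-08, edgeR). With *Mfap5*, *Fbln1* and *Efemp1* it formed the set of elastic fibre glycoproteins with under 10 CPM in every floxed library and over 20 CPM in every SMKO library.

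The sequence before the start of *Efemp1* is shown because its transcript was seen in one genotype alone. Sequences are the 250 bases before the start in RefSeq (GRCm38.p6), an assembly other than that of the count table, and 26 of the 38 members had an entry. Both strands were searched for the TATA motif TATAAA, the GC box GGGCGG, the TEAD motif CATTCC and the CArG box of serum response factor. A loose form of the AP-1 motif, TGANTCA with any base at its centre, was searched as well. Capitals mark the matches, none of which overlapped another. The stretch lies at chr11:28852955-28853204, plus strand, and holds TGAATCA and, further on, a GC box on the reverse strand.
Efemp1: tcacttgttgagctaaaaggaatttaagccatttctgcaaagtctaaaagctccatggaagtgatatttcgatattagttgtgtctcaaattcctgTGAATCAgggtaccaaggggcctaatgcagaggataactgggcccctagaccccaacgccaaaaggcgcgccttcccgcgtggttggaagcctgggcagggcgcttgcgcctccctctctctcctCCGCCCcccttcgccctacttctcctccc
*Efemp1* was the 1 member of the 26 with a match to the loose form TGANTCA, with A at its centre. Of all 32851 RefSeq promoters of this length, 6.75% hold a match to that form. GC boxes were in 14 of 26 members and 32.7% of all promoters, in 8 of the 15 members called higher, 2 of the 5 called lower and 4 of the 6 not called. The TATA motif was in 4 of 26 members (12.4% of all), the TEAD motif in 1 (12.6% of all) and the CArG box in 0 (1.47% of all). These are matches of letters in a short window and say nothing of the factors named.

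Latent TGF-β binding proteins hold TGF-β in the matrix, and *Ltbp2*, which does not bind it but binds fibrillin, moved against *Ltbp1* and *Ltbp3*. *Ltbp2* was at 204, 182 and 129.9 CPM in floxed and at 17.3, 35.7 and 24.97 CPM in SMKO libraries. All 3 SMKO libraries were several-fold below the others, a 6.60-fold lower mean (log2 fold change -2.72, SE 0.26, edgeR's adjusted p = 5.4e-06). *Ltbp1* was at 92.1, 81.3 and 66.0 CPM against 287, 330.3 and 308 CPM, and *Ltbp3* at 215, 218 and 147 CPM against 482, 552 and 402 CPM. Both rose without overlap, by 1.95 (SE 0.14) and 1.31 (SE 0.18) on the log2 scale. *Ltbp4*, at 13.3 to 22.6 CPM in floxed and 27.6 to 36.5 CPM in SMKO libraries, was not called (0.70, edgeR's adjusted p = 0.011), but was called at 1.30 with library-size scaling. Per length, *Ltbp2* fell from 24.9% ± 1.05 to 1.87% ± 0.525 of the family's mRNA, and *Ltbp3* made up 62.1% ± 1.38 and 76.9% ± 2.57 (SD, n = 3).

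Of the 5 lysyl oxidase genes, 4 rose and *Loxl1* fell in SMKO cells. *Lox*, the founding enzyme of the family, was at 215, 195 and 211 CPM in floxed and at 3899.6, 3118 and 2965 CPM in SMKO libraries. The means differed 16.1-fold, with every library of one genotype far from those of the other (log2 fold change 4.01, SE 0.16, adjusted p = 2.2e-08, edgeR). Per kilobase its level rose from 43.0 ± 2.24 to 692 ± 104 CPM (SD, n = 3), from rank 11 to rank 2 among the members. *Loxl1*, the family member tied to elastin maintenance, was at 78.5, 93.5 and 68.5 CPM against 33.1, 44.6 and 22.6 CPM. Its highest SMKO library lay below its lowest floxed library (log2 fold change -1.26, SE 0.23, edgeR's adjusted p = 0.00047), while with library-size scaling the value was -0.66 and not called.

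*Loxl2*, a secreted oxidase of collagen IV and other substrates, was at 38.1, 31.0 and 26.4 CPM in floxed and at 243, 154 and 169 CPM in SMKO libraries (log2 fold change 2.57, SE 0.20). *Loxl3* was at 15.4 to 20.3 CPM against 46.0 to 63.4 CPM (1.61, SE 0.17), with the reservation that *Htra2* overlaps it on the opposite strand with 3225 counts beside its own 4364. *Loxl4* was at 44.8 to 67.3 CPM against 109 to 159 CPM (1.10, SE 0.20), and it lost its call without replicate 3 of floxed (0.92) or replicate 1 of SMKO (0.91). None of these genes overlapped between the genotypes. Of the family's mRNA per length, *Lox* held 47.5% ± 4.71 in floxed and 88.9% ± 0.447 in SMKO cells and *Loxl1* 26.3% ± 2.83 and 1.30% ± 0.466, with a family total of 90.9 ± 6.07 and 779 ± 121 CPM per kilobase (SD, n = 3).

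**Figure D3:**
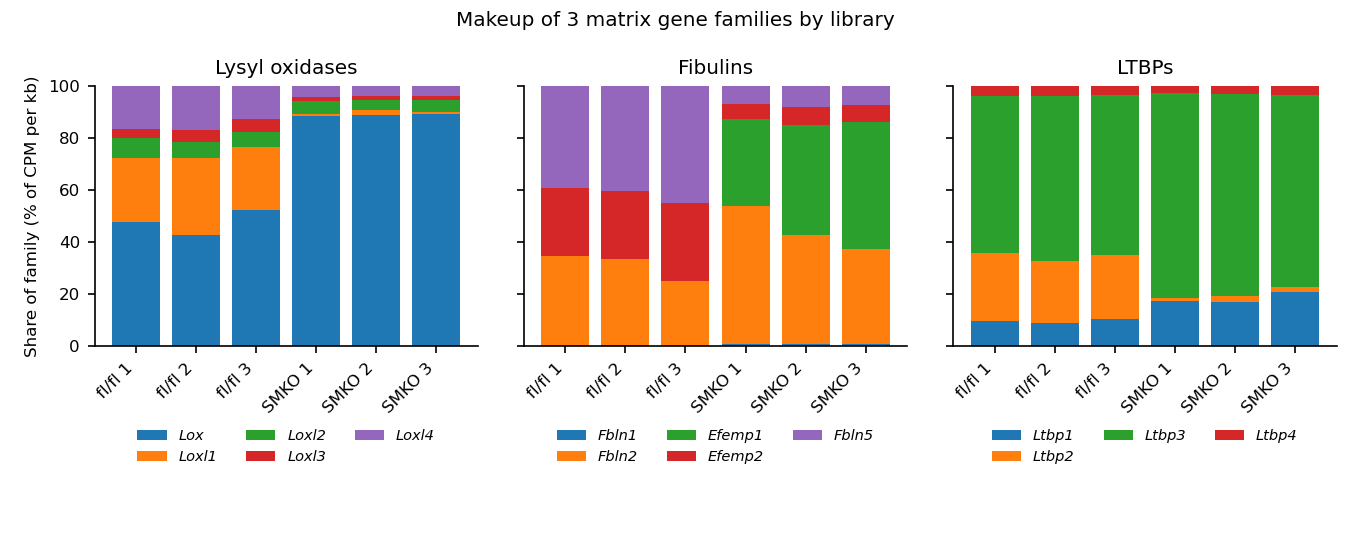
Makeup of 3 gene families in each library, as the percentage of the family's summed CPM per kilobase held by each gene, with 3 floxed bars and 3 SMKO bars per family. *Lox* fills most of the lysyl oxidase bars in SMKO libraries (88.9%), *Efemp1* appears among the fibulins in SMKO libraries alone, and *Ltbp2* narrows from 24.9% to 1.87% among the latent TGF-β binding proteins (LTBPs).

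The 9 small leucine-rich proteoglycans comprised 6 genes that rose, 2 that fell and *Bgn*, which was not called. *Bgn*, biglycan, was the member with the highest level per length in floxed cells, 945 ± 24.7 CPM per kilobase, and stood at rank 5 with 507 ± 94.4 in SMKO cells (SD, n = 3). It was at 5908, 5608 and 5735 CPM against 2427, 3496 and 3328 CPM. All 3 SMKO libraries were below the floxed libraries, but the log2 fold change of -0.90 (SE 0.16, edgeR's adjusted p = 0.00044) was short of 2-fold. *Dcn*, decorin, its closest relative and a regulator of collagen fibril diameter, was at 97.3, 79.1 and 102 CPM in floxed and at 245, 554 and 504 CPM in SMKO libraries. It rose without overlap, with replicate 1 of SMKO the lowest of its group (log2 fold change 2.23, SE 0.27, edgeR's adjusted p = 2.8e-05). Of the summed mRNA of these genes per length, *Bgn* went from 91.4% ± 0.800 to 63.9% ± 4.71 and *Dcn* from 4.29% ± 0.454 to 25.3% ± 4.18.

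*Prelp*, with the largest rise of this class, and *Fmod*, with the largest fall, are neighbours on chromosome 1. *Prelp*, prolargin, which anchors basement membranes to connective tissue, had 14, 22 and 13 counts in floxed and 2342, 3724 and 2926 counts in SMKO libraries. The means differed 138-fold (log2 fold change 7.09, SE 0.28, adjusted p = 2.2e-08, edgeR). *Fmod*, fibromodulin, a collagen-binding proteoglycan, was at 96.0, 75.2 and 83.997 CPM in floxed and at 2.77, 7.42 and 4.66 CPM in SMKO libraries. Its mean was 17.2-fold lower in SMKO cells (log2 fold change -4.11, SE 0.30, edgeR's adjusted p = 7e-07). In the coordinates of the count table, *Prelp* lies at 142567116 to 142578224 on the minus strand and *Fmod* at 142699211 to 142715887 on the plus strand, 121 kb apart. *Optc*, next to *Prelp*, had 0, 0 and 4 counts against 10, 6 and 9 and was too low to test. The 250 bases before each start are shown as those of adjacent genes that moved in opposite directions. They lie at chr1:133921402-133921651, minus strand, and chr1:134037004-134037253, plus strand (RefSeq, GRCm38.p6), and hold none of the 5 motifs, so they carry no capitals.
Prelp: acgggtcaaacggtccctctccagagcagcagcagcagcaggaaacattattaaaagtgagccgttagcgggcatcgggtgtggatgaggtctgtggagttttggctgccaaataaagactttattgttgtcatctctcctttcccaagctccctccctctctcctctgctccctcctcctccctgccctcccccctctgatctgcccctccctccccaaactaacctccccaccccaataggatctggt
Fmod: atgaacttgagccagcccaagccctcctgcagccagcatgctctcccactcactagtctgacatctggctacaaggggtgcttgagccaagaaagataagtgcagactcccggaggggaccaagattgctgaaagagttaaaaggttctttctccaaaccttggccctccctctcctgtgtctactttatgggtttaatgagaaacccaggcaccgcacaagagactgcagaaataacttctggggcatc
Their GC contents were 55.6% and 51.2%, with a median of 52.4% over all promoters in the table.

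Proteoglycan genes of chromosome 13 stand in the order *Ecm2*, *Aspn*, *Omd* and *Ogn*, with gaps of 11.7, 19.6 and 13.5 kb. *Ogn*, osteoglycin or mimecan, a proteoglycan that was abundant in both genotypes, was at 35.996, 41.6 and 58.3 CPM in floxed and at 67.4, 118 and 115 CPM in SMKO libraries. The groups did not overlap (log2 fold change 1.15, SE 0.24, edgeR's adjusted p = 0.0012). *Omd*, osteomodulin, had 2, 8 and 3 counts against 65, 138 and 132 counts, a log2 fold change of 4.25 (SE 0.52) that was 4.88 without replicate 2 of floxed. *Aspn*, asporin, had 9, 21 and 12 counts against 9, 7 and 10, and its call as lower (-1.11, SE 0.43, edgeR's adjusted p = 0.037) was lost when any single library except replicate 1 of floxed was left out, with DESeq2 (adjusted p = 0.098), with no filter (-1.06) and with upper-quartile (-0.90) or library-size scaling (-0.50). *Ecm2*, no member but the neighbour of *Aspn*, had 110, 124 and 81 counts against 1, 7 and 5. *Ecm2* was thus lower at one end of the cluster and *Ogn* higher at the other. No division of the cluster is drawn from *Aspn* and *Omd* between them. The spans of *Aspn*, *Omd* and *Ogn* overlap that of *Cenpp*, which runs on the opposite strand. *Cenpp* had 356 counts over its whole length, which equals 4.28% of the counts of *Ogn*, 102% of those of *Omd* and 524% of those of *Aspn*. Overlap of exons was not examined, so how many reads of *Cenpp* entered the counts of *Aspn* and *Omd* is not known, and their values are uncertain to that extent.

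On chromosome 10, *Dcn* and *Lum* stand 48.9 kb apart and both rose. *Lum*, lumican, known for ordering collagen in the cornea, had 4, 6 and 4 counts in floxed and 57, 193 and 122 counts in SMKO libraries. Its mean was 20.1-fold higher without overlap (log2 fold change 4.29, SE 0.57). Yet even in SMKO cells its level per length was far below that of *Dcn*, 3.04 against 208 CPM per kilobase. The next genes of the cluster, *Kera* and *Epyc*, had 0 counts and at most 2 counts in any library. *Podn*, podocan, had 13 to 18 counts against 33 to 94, and its call (1.38, SE 0.48, edgeR's adjusted p = 0.022) was lost without replicate 1 or 2 of floxed (1.26 and 1.35) or replicate 2 of SMKO (0.76).

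**Figure D4:**
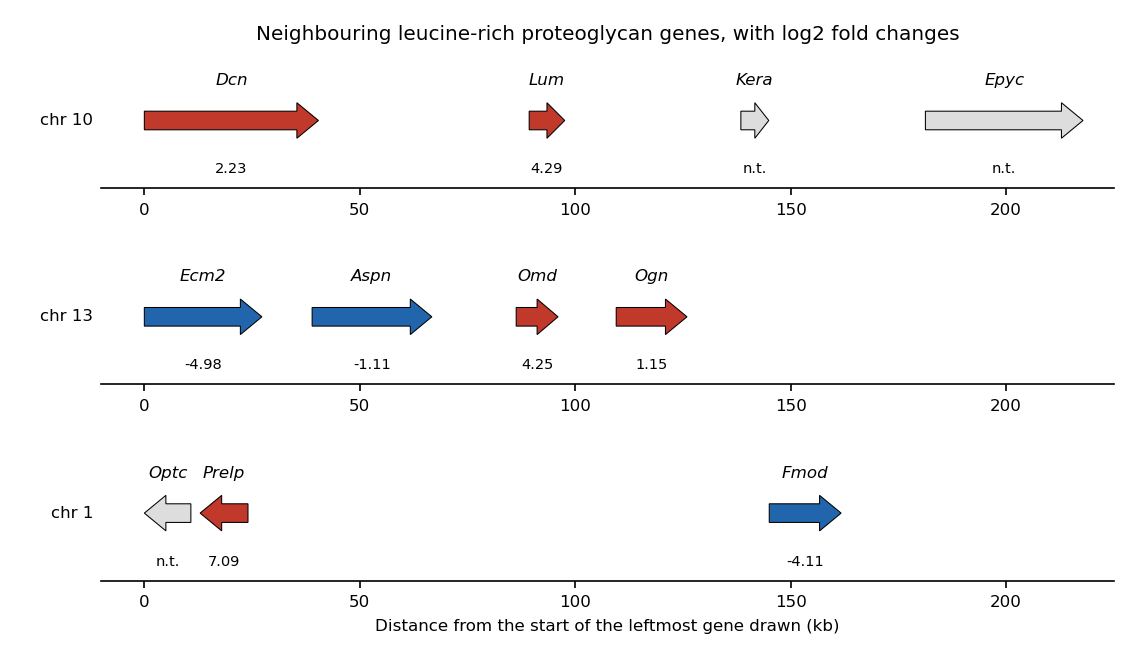
Small leucine-rich proteoglycan clusters, each gene drawn to scale against the distance in kilobases from the first gene of its cluster and pointing along its strand, red for higher, blue for lower and grey where too low to test, with its log2 fold change (n.t., too low to test). *Prelp* (7.09) and *Fmod* (-4.11) have opposite signs in one cluster, as do *Ecm2* (-4.98) and *Omd* (4.25) in another.

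Both large proteoglycans rose. *Hspg2*, perlecan, a heparan sulfate proteoglycan of basement membranes, was at 496, 452 and 282 CPM in floxed and at 1810.4, 1636 and 1279.9 CPM in SMKO libraries (log2 fold change 1.94, SE 0.22). *Vcan*, versican, the hyaluronan-binding proteoglycan of the arterial intima and media, was at 15.4, 9.44 and 9.99 CPM against 46.1, 57.1 and 72.1 CPM (2.33, SE 0.23). Neither gene overlapped between the genotypes, and edgeR's adjusted p were 1.7e-05 and 6.1e-06.

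Adhesive and matricellular genes held both the highest level and the largest fall of the list. *Fn1*, fibronectin, on which cells assemble the rest of the matrix, was at 4018, 3486 and 2352 CPM in floxed and at 9934, 12662 and 12147 CPM in SMKO libraries. It rose 3.53-fold in the mean (log2 fold change 1.82, SE 0.21, edgeR's adjusted p = 1.9e-05) and had the highest level per length of the 38 in SMKO cells, 991 ± 124 CPM per kilobase. *Thbs1*, thrombospondin-1, which binds and activates latent TGF-β, was at 503, 447 and 343 CPM against 4198, 2889.8 and 3273 CPM. Its groups were far apart (log2 fold change 3.00, SE 0.20, edgeR's adjusted p = 3.9e-07). *Tnc*, tenascin-C, a glycoprotein of injured and developing matrix, was at 42.1, 33.8 and 24.1 CPM against 379, 259 and 214 CPM, and rose by 3.09 (SE 0.26, edgeR's adjusted p = 1.8e-06). *Thbs2* was at 67.0 to 84.6 CPM and 109.8 to 137 CPM, a change of 0.69 (SE 0.14) that was under 2-fold and passed it with library-size scaling (1.29). *Sparc*, a collagen-binding matricellular protein, was at 1903, 1755 and 1994 CPM against 2913, 2011 and 1909 CPM. Replicates 2 and 3 of SMKO lay close to or within the range of floxed, and it was not called (0.27, SE 0.17, edgeR's adjusted p = 0.17).

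*Postn*, periostin, a TGF-β-responsive protein that promotes collagen cross-linking through *Bmp1* and *Lox*, was at 653, 595 and 706 CPM in floxed and at 11.6, 11.7 and 10.2 CPM in SMKO libraries. The libraries of each genotype were close together and the genotypes far apart, a 58.4-fold lower mean (log2 fold change -5.87, SE 0.15, adjusted p = 8.5e-09, edgeR). Per kilobase, *Postn* went from 74.8 ± 6.38 to 1.28 ± 0.0989 CPM (SD, n = 3), from rank 6 to rank 32 of the 38. The sequence before its start is shown as that of the member with the most negative log2 fold change, from 1 of 2 listed starts, at chr3:54359017-54359266, plus strand (RefSeq, GRCm38.p6), with no match to the 5 motifs and a GC content of 40.4%.
Postn: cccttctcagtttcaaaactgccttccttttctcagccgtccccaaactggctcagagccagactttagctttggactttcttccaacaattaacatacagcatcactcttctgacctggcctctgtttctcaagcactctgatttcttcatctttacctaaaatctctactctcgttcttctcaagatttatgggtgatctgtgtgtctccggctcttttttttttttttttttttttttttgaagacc

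Replicate 1 of SMKO stood apart for several members. It differed by more than 1.5-fold from the mean of replicates 2 and 3 for 14 of the 38 members (36.8%), beside 17.2% of all genes tested. Of the 9 small leucine-rich proteoglycans, 8 were lowest in replicate 1, at a median ratio of 0.464 to the mean of the other replicates, and *Dcn*, *Lum*, *Fmod*, *Omd* and *Podn* were all under 0.47. Of the 5 lysyl oxidases, 4 were highest in replicate 1, at a median ratio of 1.28. *Eln* (4.58), *Fbln2* (1.68) and *Tnc* (1.60) were higher there and *Mfap4* (0.156) lower. Over all members, 16 (42.1%) were lowest and 15 (39.5%) highest in that library, beside 38.3% and 36.9% of all genes tested. In the same library the summed fibroblast markers stood at 0.504 times the mean of replicates 2 and 3. The smooth muscle markers stood at 1.22, the endothelial at 1.62, the mesothelial at 1.71 and the macrophage markers at 2.77 times it. The fibroblast sum was mostly *Col14a1* (0.499), while *Cd34* (1.44) and *Pi16* (1.33) were above 1 and the others below. In the smooth muscle sum, mostly *Acta2* (1.15), *Tagln* (2.44) and *Cnn1* (4.27) were higher, and *Myocd*, *Lmod1* and *Des* slightly below 1. The part of these in the member values was not tested. Without replicate 1, 22 members were higher and 6 lower, against 24 and 7 with it.

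**Figure D5:**
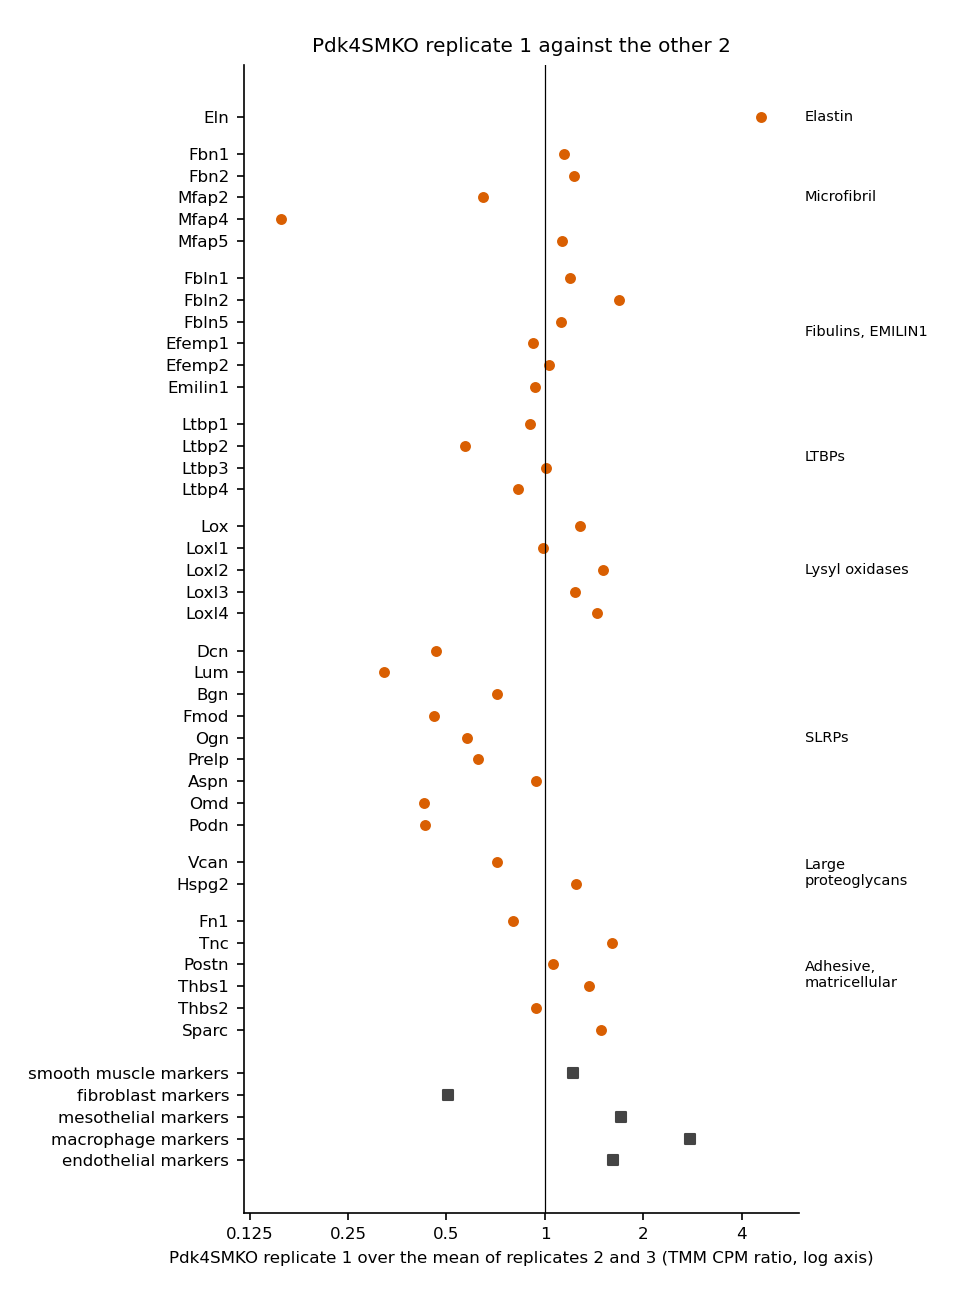
Ratio of SMKO replicate 1 to the mean of replicates 2 and 3 for each member, in TMM CPM on a log axis, with circles for members by role and squares for summed cell type markers. All 9 small leucine-rich proteoglycans lie below 1 (median 0.464), 4 of 5 lysyl oxidases above 1 (median 1.28), and *Eln* (4.58) and *Mfap4* (0.156) mark the extremes.

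A further 104 genes of elastic fibre accessory proteins, other proteoglycans, other matricellular proteins, cell-surface proteoglycans and glycosaminoglycan synthesis were listed for comparison. Of these, 80 were tested, with 49 higher, 14 lower and 17 not called, beside 32.8% higher and 26.5% lower over all genes tested. Those shares also stand beside the counts of each class below. Of the 80, 70 did not overlap between the genotypes, beside 81.8% of all genes tested. Their median log2 fold change was 1.35. *Hmcn1*, *Gpc3*, *Prg4*, *Chst12*, *Ust*, *Gpc2*, *Tnr*, *Tgfbi* and *Has3*, called higher, had at most 10 counts in any floxed library. They passed the filter on low counts through the SMKO libraries. *Ecm2*, *Nyx*, *Acan*, *Matn4*, *Spock2* and *Chst3*, called lower, passed it through the floxed libraries. All of these are part of the counts and the median given here. Glycosaminoglycan synthesis genes, which build the chains that proteoglycan cores carry, were 28 with 19 higher and 2 lower. *Chst12*, a chondroitin sulfotransferase, was at 0.592 ± 0.0937 and 54.1 ± 4.81 CPM (SD, n = 3). Cell-surface proteoglycans were 9 with 6 higher and 2 lower, the latter being *Sdc4* (-1.28) and *Gpc6* (-1.23), while *Gpc3*, glypican-3, was at 0 in all floxed libraries and at least 114-fold higher in SMKO cells. Among 18 other matricellular genes, 12 were higher and 4 lower, with *Ccn2*, connective tissue growth factor, at 29.2 ± 5.85 and 1391 ± 459 CPM and *Ccn5* at 272 ± 32.3 and 81.0 ± 26.1 CPM. Accessory genes of elastic fibres were 15 with 9 higher and 3 lower. *Ctsa* and *Neu1*, the cathepsin A and neuraminidase that form, with a splice product of beta-galactosidase, the receptor that releases tropoelastin at the cell surface, were lower, with log2 fold changes of -2.65 (SE 0.13) and -2.50 (SE 0.12), but *Glb1*, the gene of beta-galactosidase, was higher at 1.59 (SE 0.15). *Hmcn1*, hemicentin-1, was at 0 in all floxed libraries and at least 335-fold higher. Of 10 other proteoglycans, 3 were higher and 3 lower, with *Prg4*, lubricin, at least 357-fold higher.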

How the data were processed

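For the 6 libraries the authors deposited raw read counts by gene, whole and not normalized, as columns of 1 table. Its gene identifiers and coordinates are those of Ensembl's C57BL/6NJ strain annotation, while the submitters' processing notes name GRCm39. The aligner, the counting program and the use of strand are not given in the sources used here, and the labels and the methods name different library kits. Members and gene lists were chosen with earlier results of these data known. In R 4.3.3, genes passing edgeR's filterByExpr (edgeR 4.0.16) were normalized by TMM and tested by its quasi-likelihood test on genotype, with Benjamini-Hochberg adjustment over 14085 genes. Calls required an adjusted p below 0.05 together with an absolute log2 fold change of 1 or more. CPM are TMM-normalised, and CPM per kilobase divides by the table's gene length. Folds against a genotype at or under 3 counts in every library are bounds against that floor, which covers counting error alone. The fit was also run on simulated counts with 200 changed genes. That is far fewer than were called here, so this run does not test the scaling of these data. Every member is named, and of the other matrix lists the 5 lowest and 5 highest log2 fold changes among called genes without overlap whose higher group mean reached 10 CPM, with the cluster neighbours *Ecm2*, *Optc*, *Kera* and *Epyc*. *Glb1* was named after its values were seen. Alternatives were other scalings, DESeq2 1.42.0, other filters and thresholds, protein-coding genes alone, a replicate block and each library left out. The authors' own comparisons were not used.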

Additional observations from a re-analysis of the deposited data

How the results depend on the processing

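Of the 38 members, 27 kept their direction and call under each of the 15 alternatives in which they were tested and 11 did not, 6 members having too few counts for 1 of the 15. Directions turned for members that were not called: *Mfap4* was 0.10 with upper-quartile scaling, 0.49 with library-size scaling and -0.71 to 0.40 with a library left out, *Efemp2* was 0.17, 0.57, 0.00806 with no filter, 0.0588 with at least 10 counts in every library and -0.0726 to 0.0234 with a library left out, and *Fbln5* was 0.12 with library-size scaling. Members called numbered 22 to 24 higher and 6 to 7 lower with a library left out, and 26 higher and 9 lower by adjusted p alone, which 79.1% of all genes tested passed and which added *Fbln5*, *Bgn*, *Ltbp4* and *Thbs2*. With at least 10 counts in every library, which 32 members passed, 19 were higher and 6 lower, and the other matrix genes called lower numbered 7 in place of 14. With library-size scaling, 2390 genes of the whole table were lower in place of 3733. The cause of the difference between scalings was not tested. Deviations of same-numbered libraries correlated at 0.0396, 0.0604 and 0.176, and floxed replicate 1 correlated about as well with SMKO replicate 2 (0.0431), so pairing by number was not established. With the replicate block 24 members were higher and 6 lower, 49 and 14 of the other matrix genes, and 4577 and 3704 of all genes, *Aspn* being the member that lost its call. The standard error was largest for *Mfap4*, *Lum*, *Omd* and *Eln*, at 0.51 to 0.58 on the log2 scale.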
